A study of Mus musculus with 4 samples.

Results

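The 10 genes described here encode the elastic fibre core, its microfibrils and the proteins that join them. They were chosen by name, as *Eln*, *Fbn1*, *Mfap4*, *Mfap5*, *Fbln1*, *Fbln2*, *Fbln5*, *Efemp1*, *Emilin1* and *Ltbp4*, and all 10 were found among the 30406 genes that the 4 matrices have in common. The vessels were popliteal lymphatic vessels (PLVs), which drain the mouse lower limb, and the adjacent superficial saphenous vein (SSV), and 3 mice were pooled for each library. All mice had a C57BL/6J background, given as C57BL6 in the label of WT. The tdT1 and tdT2 libraries held live (DAPI-negative) tdT+ cells from male and female Cspg4-Cre;Ai9-tdTomato mice over 8 months old that carried 1 copy of each allele. In these mice, the *Cspg4* promoter drives Cre, so that a cell with present or past Cre activity carries the red reporter. The WT library came from male wild-type mice and the TNF-Tg library from male TNF-transgenic mice, which carry a human TNF transgene and develop inflammatory-erosive arthritis. Both were labelled as 9 months old, had no reporter and were sorted as live cells of high forward scatter, high side scatter or both. Each library was made on its own day, and tdT1 was sorted through a smaller nozzle and sequenced on another instrument than the others.

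An elastic fibre has an amorphous core of cross-linked elastin and a mantle of fibrillin microfibrils. Elastin monomers are secreted as tropoelastin, gathered by fibulins on microfibrils, and cross-linked by lysyl oxidases into a polymer that lets a vessel wall stretch and recoil. Microfibrils also hold latent TGF-beta through LTBP proteins. In vessels, smooth muscle cells, adventitial fibroblasts and endothelial cells are all known to make parts of these fibres.

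Cells were sorted by marker genes that included none of the 10. The stromal markers were *Prrx1*, *Pdgfra*, *Dcn*, *Col1a1*, *Col1a2* and *Serping1*. A stromal cell had at least 10 unique molecular identifiers (UMIs, each tagging 1 captured mRNA molecule) of 6 stromal markers, at least 10 times as many of these as of leukocyte markers, and under 3 of endothelial markers. Lymphatic muscle cell (LMC)-type stroma scored higher for genes led by *Myoc*, *Pi16* and *Fndc1*, and vascular smooth muscle cell (VSMC)-type stroma for genes led by *Cxcl14*, *Mgp* and *Gdf10*. The gate left 687 LMC-type and 179 VSMC-type cells in tdT1, 89 and 105 in tdT2, 1468 and 575 among WT cells, and 512 and 470 among TNF-Tg cells. The summed UMIs behind a level ranged from 504458 in LMC-type cells of tdT2 to 24017300 in those of WT. The names LMC-type and VSMC-type stand for these marker scores. Whether these cells were contractile was not tested. *Acta2*, the smooth muscle actin gene, was at 0.12 to 0.86 CPM (UMIs per 1000000 summed UMIs) in the LMC-type cells of tdT1, WT and TNF-Tg. It had no UMI in those of tdT2. *Myh11*, the smooth muscle myosin gene, was at most 0.12 CPM in LMC-type cells. In LMC-type cells of tdT2, a count of 0 allows up to 5.95 CPM (3 UMIs). In VSMC-type cells, *Acta2* was at 160 CPM in tdT1 and between 0.34 and 4.46 CPM in the other libraries. The paper saw the *Acta2* protein by staining in these vessels and proposes that shallow droplet sequencing may miss such transcripts. It also found limited reporter signal in these vessels of *Acta2*-Cre and *Acta2*-CreER mice, which it reads as low *Acta2* expression. Its authors could not fully exclude that the proposed LMCs and VSMCs were myofibroblasts from the surrounding tissue. *Tagln*, *Cnn1*, *Des* and *Rgs5* complete the list of 6 smooth muscle and pericyte markers. That list summed to 40.3, 9.91, 36.4 and 31.4 CPM in LMC-type cells of tdT1, tdT2, WT and TNF-Tg. In VSMC-type cells it summed to 301, 5.46, 3.42 and 9.12 CPM in the same order. Leukocyte markers summed to at most 64.4 CPM and endothelial markers to at most 5.46 CPM in cells of either type. Haemoglobin and *Alas2* transcripts summed to 617 CPM in the LMC-type cells of TNF-Tg and to at most 93.6 CPM in the other sums, and their part in the results was not tested. Pairs of libraries had at most 5 cell barcodes in common.

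The microfibril genes *Fbn1* and *Mfap5* and the fibulin gene *Efemp1* were higher in LMC-type stroma in all 4 libraries, while the microfibril gene *Mfap4*, *Fbln1* and *Ltbp4* were higher in VSMC-type stroma. Of the 10 genes, 6 passed the test between the types, 3 in each direction, whereas 13.5% of the 10995 genes tested passed it, 6.32% higher in LMC-type and 7.18% higher in VSMC-type stroma. Levels of the 2 types did not overlap across libraries for 4 of the 10 genes and for 10.5% of the genes tested. The median log2 ratio of LMC-type over VSMC-type stroma was -0.26 over the 10 genes and -0.02 over all genes tested. The test was edgeR's quasi-likelihood test on 8 sums with library as a block, and the threshold was an adjusted p of 0.01. The SE beside a fitted log2 ratio was derived from the F statistic of that test, with spread shared over genes. It is not the SE of the 4 ratios within libraries, which are of CPM without edgeR's scaling. Both types of a library came from 1 suspension and were gated on other genes of the same cells, so the p-values describe how evenly a gene separated the gated cells across these libraries. The study lists several of these genes as cluster markers in the same libraries, so their directions are not independent of it.

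**Figure D1:**
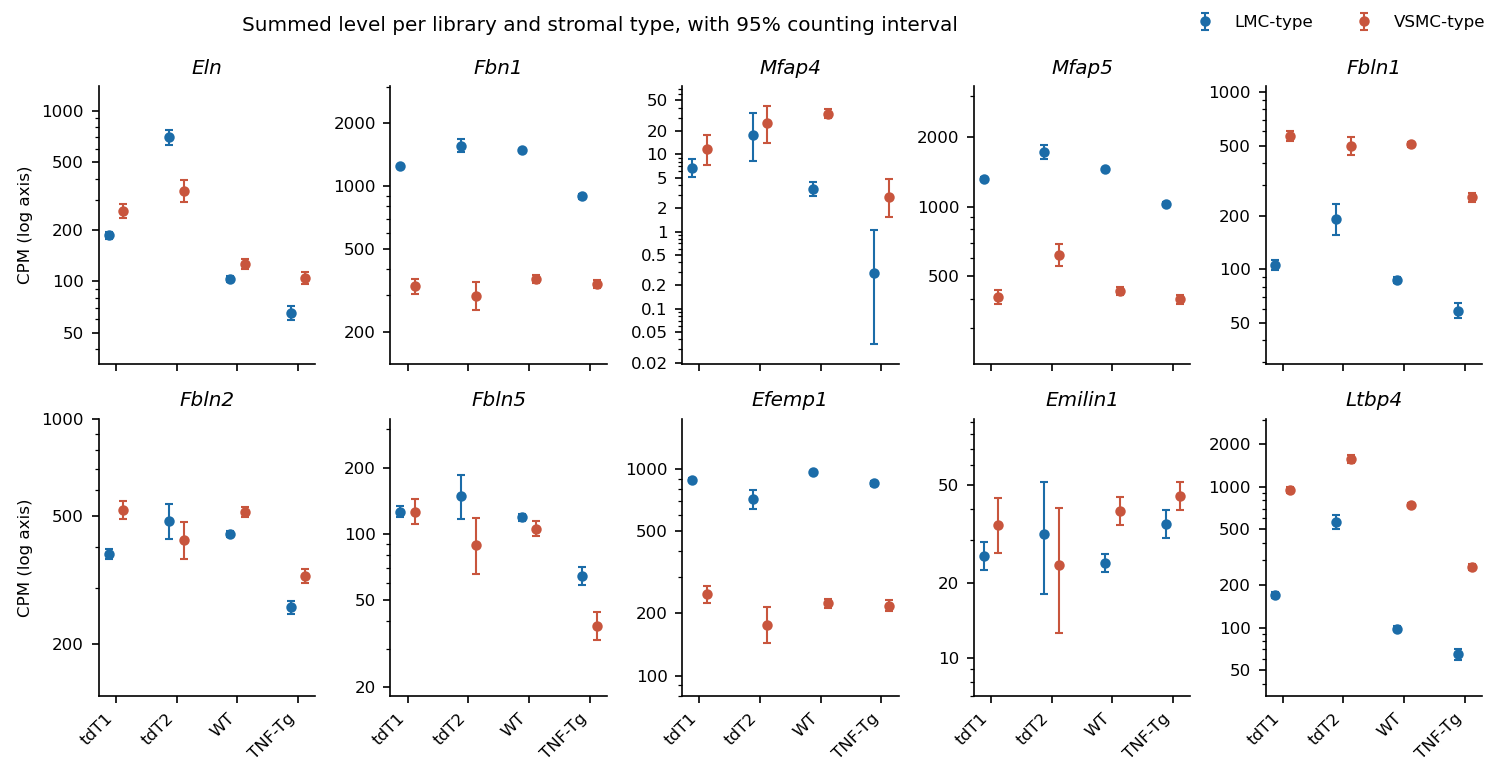
Level of each gene in CPM (log axis) in LMC-type and VSMC-type stroma of the 4 libraries, with exact Poisson 95% intervals for counting error. *Fbn1*, *Mfap5* and *Efemp1* lie higher in LMC-type stroma and *Fbln1* and *Ltbp4* higher in VSMC-type stroma of every library.

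*Fbn1* (ENSMUSG00000027204, chromosome 2 of GRCm38 from 125300594 to 125507993) encodes fibrillin-1, the main protein of microfibrils. In LMC-type stroma, *Fbn1* stood at 1243 CPM in tdT1, 1564 CPM in tdT2 and 1489 CPM in WT, with 895 CPM in TNF-Tg. In VSMC-type stroma, it stood at 331, 298, 359.9 and 340.0 CPM in the same order. The lowest LMC-type level thus lay above the highest VSMC-type level. The fitted log2 ratio of *Fbn1* was 1.84 ± 0.18 (SE, 4 libraries), a 3.58-fold difference (edgeR, adjusted p = 5.1e-06), and the ratio within single libraries ran from 1.40 in TNF-Tg to 2.39 in tdT2.

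*Mfap5* (ENSMUSG00000030116, chromosome 6 from 122505845 to 122529290) encodes MAGP-2, a small glycoprotein that binds fibrillin. It stood at 1311, 1721, 1455 and 1027 CPM in the LMC-type stroma of tdT1, tdT2, WT and TNF-Tg. In VSMC-type stroma, *Mfap5* stood at 408, 619, 432 and 398 CPM. The groups did not overlap, and the log2 ratio of *Mfap5* was 1.49 ± 0.14 (SE, 4 libraries). *Efemp1* (ENSMUSG00000020467, chromosome 11 from 28853204 to 28926743) encodes fibulin-3. Its levels were 885, 714, 963 and 853 CPM in LMC-type stroma and 248, 177, 224 and 218 CPM in VSMC-type stroma. *Efemp1* had the smallest spread between libraries of the log2 ratio among the 6 genes that passed, from 1.84 in tdT1 to 2.11 in WT, with a fit of 1.89 ± 0.13 (SE, 4 libraries). Adjusted p-values from edgeR were 4.0e-06 for *Mfap5* and 2.8e-07 for *Efemp1*.

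In VSMC-type stroma, *Fbln1* (ENSMUSG00000006369, chromosome 15 from 85205949 to 85286535), which encodes the elastic fibre protein fibulin-1, stood at 566 CPM in tdT1, 499 CPM in tdT2 and 507 CPM in WT, with 255 CPM in TNF-Tg. In LMC-type stroma, it stood at 106, 192, 87.2 and 58.4 CPM. The lowest VSMC-type level, that of TNF-Tg, was above the highest LMC-type level, that of tdT2. The log2 ratio of *Fbln1* was -2.24 ± 0.18 (SE, 4 libraries), 4.74-fold higher in VSMC-type stroma (edgeR, adjusted p = 1.2e-06).

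*Ltbp4* (ENSMUSG00000040488, chromosome 7 from 27305136 to 27337692) encodes a latent TGF-beta binding protein that also binds fibulins and takes part in elastin deposition. It stood at 953, 1587, 743 and 270.1 CPM in the VSMC-type stroma of tdT1, tdT2, WT and TNF-Tg, and at 170.1, 565, 98.1 and 64.4 CPM in the LMC-type stroma. *Ltbp4* was higher in VSMC-type stroma within each library, but levels of the types overlapped across libraries, since LMC-type cells of tdT2 exceeded VSMC-type cells of TNF-Tg. The log2 ratio of *Ltbp4* was -2.34 ± 0.20 (SE, 4 libraries), a 5.07-fold difference (edgeR, adjusted p = 2.1e-06). Without the library block its call was lost, at an adjusted p of 0.14 in edgeR.

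*Mfap4* (ENSMUSG00000042436, chromosome 11 from 61485431 to 61488900), which encodes a fibrinogen-related protein of microfibrils, rested on few UMIs. In VSMC-type stroma, *Mfap4* stood at 11.7 CPM in tdT1, 25.5 CPM in tdT2 and 33.8 CPM in WT, with 2.84 CPM in TNF-Tg. In LMC-type stroma, it stood at 6.73, 17.8, 3.58 and 0.29 CPM, the last from 2 UMIs. The log2 ratio was -2.25 ± 0.42 (SE, 4 libraries; edgeR, adjusted p = 0.0015) and ranged within libraries from -3.30 in TNF-Tg to -0.51 in tdT2. *Mfap4* lost its call without the WT library (log2 ratio -1.19; edgeR, adjusted p = 0.12) and without the library block (adjusted p = 0.33).

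The other 4 genes did not pass the test. *Eln* (ENSMUSG00000029675, chromosome 5 from 134702593 to 134747323), the elastin gene, stood at 186, 698, 103 and 65.2 CPM in the LMC-type stroma of tdT1, tdT2, WT and TNF-Tg and at 258, 338, 127 and 105 CPM in the VSMC-type stroma. *Eln* was lower in the LMC-type cells of 3 libraries and higher in those of tdT2, where the log2 ratio was 1.04. Its fitted log2 ratio was -0.22 ± 0.23 (SE, 4 libraries; edgeR, adjusted p = 0.57), and without tdT2 it was -0.58 (edgeR, adjusted p = 0.013).

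*Fbln2* (ENSMUSG00000064080, chromosome 6 from 91212455 to 91272540) and *Fbln5* (ENSMUSG00000021186, chromosome 12 from 101746565 to 101819055) encode fibulins, of which fibulin-5 is required for normal elastic fibre assembly. *Fbln2* ranged from 261 to 482 CPM in LMC-type and from 325 to 522 CPM in VSMC-type stroma, with a log2 ratio of -0.30 ± 0.14 (SE, 4 libraries; edgeR, adjusted p = 0.17). *Fbln5* ranged from 64.6 to 149 CPM in LMC-type and from 38.1 to 126 CPM in VSMC-type stroma, with a log2 ratio of 0.28 ± 0.14 (SE, 4 libraries; edgeR, adjusted p = 0.19). *Emilin1* (ENSMUSG00000029163, chromosome 5 from 30913402 to 30921277) encodes a glycoprotein at the border between elastin and microfibrils. It was at 24.1 to 34.8 CPM in LMC-type and at 23.7 to 45.2 CPM in VSMC-type stroma, with a log2 ratio of -0.54 ± 0.15 (SE, 4 libraries; edgeR, adjusted p = 0.019). *Emilin1* passed the threshold without tdT2 (edgeR, adjusted p = 0.0056), at a score limit of 0.2 and with clusters in place of the gate (adjusted p = 0.0087 in each).

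**Figure D2:**
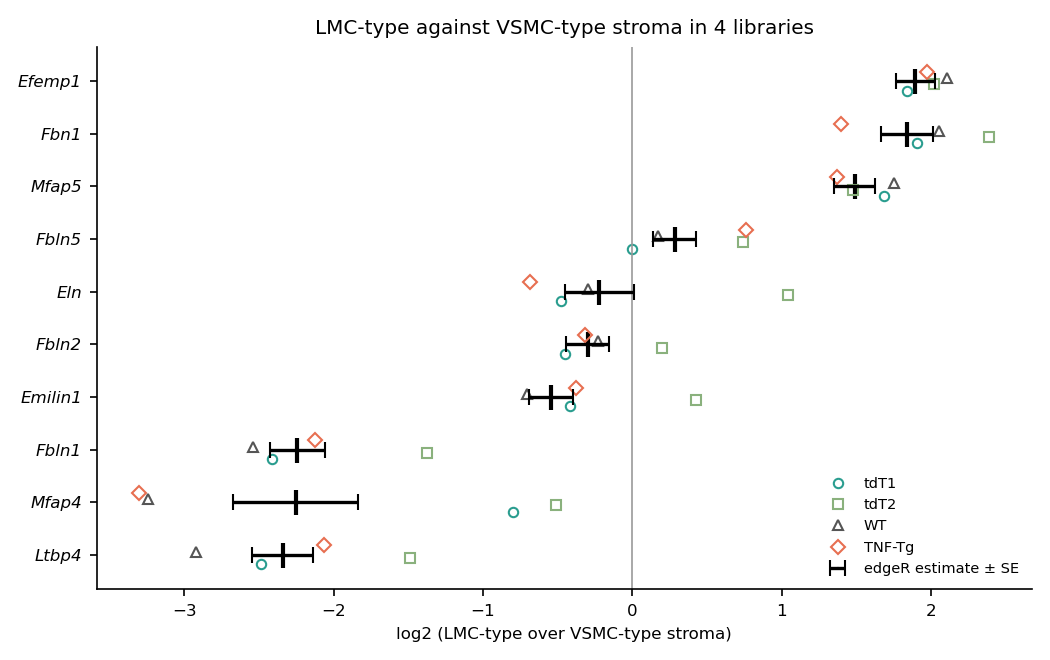
Log2 ratio of LMC-type over VSMC-type stroma for each gene, with the edgeR estimate and its SE (bars) and the ratio within each of the 4 libraries (open symbols). The tdT2 library lies to the right of the other libraries for *Eln*, *Fbn1*, *Mfap4*, *Fbln1*, *Fbln2*, *Emilin1* and *Ltbp4*.

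The upstream sequences of 2 genes higher in LMC-type and 2 higher in VSMC-type stroma are printed here, since the pairs moved in opposite directions between cells of the same suspension. RefSeq start sites of GRCm38.p6 were found for 7 of the 10 genes, and the start nearest to the annotated gene start was used. The stretch printed for *Fbn1* lies inside the annotated gene, which begins at 125507993 on the minus strand. It is thus upstream of the RefSeq start and not of the annotated gene. Part of the stretch printed for *Ltbp4* also lies inside its annotated gene. Each line holds the 250 bases before the start, 5′ to 3′ on the gene's strand, and capitals mark matches on either strand. The motifs searched were GGGCGG (a site of Sp factors), the CCAAT box, the TATA box in the form TATAAA, the AP-1 site in the form TGANTCA, and the CArG box, the element bound by serum response factor. Matches to different motifs did not overlap. *Fbn1* lies at chr2:125506439-125506688 on the minus strand, *Efemp1* at chr11:28852955-28853204 on the plus strand, *Fbln1* at chr15:85205699-85205948 on the plus strand, and *Ltbp4* at chr7:27337613-27337862 on the minus strand.
Fbn1: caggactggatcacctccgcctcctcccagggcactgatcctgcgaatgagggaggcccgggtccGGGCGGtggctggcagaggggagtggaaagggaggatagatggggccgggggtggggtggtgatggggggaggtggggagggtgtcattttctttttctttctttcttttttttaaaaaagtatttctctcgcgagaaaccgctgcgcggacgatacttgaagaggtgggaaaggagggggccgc
Efemp1: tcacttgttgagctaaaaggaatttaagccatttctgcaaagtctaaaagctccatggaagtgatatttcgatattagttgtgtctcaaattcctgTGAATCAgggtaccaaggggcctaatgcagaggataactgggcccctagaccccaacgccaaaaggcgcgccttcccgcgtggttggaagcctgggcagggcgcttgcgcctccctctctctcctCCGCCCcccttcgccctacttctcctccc
Fbln1: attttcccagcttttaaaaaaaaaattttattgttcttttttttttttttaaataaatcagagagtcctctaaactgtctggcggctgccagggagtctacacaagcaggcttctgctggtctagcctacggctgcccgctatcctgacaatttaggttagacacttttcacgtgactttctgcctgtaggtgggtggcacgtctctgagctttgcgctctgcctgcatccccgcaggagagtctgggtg
Ltbp4: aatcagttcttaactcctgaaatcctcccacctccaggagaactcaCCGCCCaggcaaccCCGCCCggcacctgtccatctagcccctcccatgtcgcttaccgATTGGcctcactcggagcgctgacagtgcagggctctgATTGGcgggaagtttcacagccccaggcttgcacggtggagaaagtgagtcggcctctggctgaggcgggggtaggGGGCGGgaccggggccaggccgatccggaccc
GGGCGG had 1 match before *Fbn1*, 1 before *Efemp1* and 3 before *Ltbp4*, and 32.7% of 32851 such windows in the table held at least 1. CCAAT had 2 matches before *Ltbp4* (33.8% of windows) and TGANTCA 1 before *Efemp1* (6.75% of windows). The window before *Fbln1* held no match, and none of the 4 windows held a TATA box or a CArG box, which 12.4% and 1.47% of windows held. The GC content was 59.2% before *Fbn1*, 53.6% before *Efemp1*, 46.4% before *Fbln1* and 64.4% before *Ltbp4*, against a median of 52.4%.

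The tdT libraries are the only replicates of 1 group, and their spread is given beside the differences between TNF-Tg and WT. They differ in nozzle and sequencer, which WT and TNF-Tg had in common. Over 10% mitochondrial UMIs were found in 184 of 687 LMC-type cells of tdT1 and in 0 of 89 of tdT2. The spread between tdT1 and tdT2 is therefore no measure of replicate error between TNF-Tg and WT. *Eln* was at 442 ± 362 CPM (SD, n = 2 libraries) in the LMC-type stroma of tdT1 and tdT2, and the log2 ratio of tdT2 over tdT1 was 1.91 [1.74 to 2.08]. Intervals in brackets are exact conditional binomial 95% intervals and cover counting error only. The log2 ratio of tdT2 over tdT1 was 1.73 for *Ltbp4* in LMC-type stroma and 0.74 in VSMC-type stroma. It lay between -0.31 and 0.39 for *Fbn1*, *Mfap5*, *Fbln2*, *Fbln5* and *Efemp1* in LMC-type stroma. It was 0.86 for *Fbln1* in LMC-type stroma and 0.60 for *Mfap5* in VSMC-type stroma. In LMC-type stroma, *Eln*, *Fbln1*, *Efemp1* and *Ltbp4* differed more between the tdT libraries than between TNF-Tg and WT. In VSMC-type stroma, *Eln*, *Fbn1*, *Mfap5*, *Efemp1* and *Emilin1* did. The share of all genes that did so was not computed, so nothing particular to these genes is read from it. Endothelial cells of tdT1 also held *Eln* and *Ltbp4* transcripts. In the LMC-type cells of tdT2, endothelial markers summed to 1.98 CPM (1 UMI), but the gate itself limited these markers in stromal cells. Whether endothelial transcripts had a part in the tdT2 levels was not tested.

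The next comparison asked how the genes stood in stroma of arthritic TNF-Tg mice against WT. With 1 library for each, it has no replicate error and no test, and condition and library cannot be told apart. In LMC-type stroma, 8 of the 9 genes with at least 10 CPM in either library were lower in TNF-Tg and *Emilin1* was higher, whereas 52.2% of the 7989 genes at that level were lower. None of the 9 was 2-fold apart, as were 5.61% of all genes. The median log2 ratio of TNF-Tg over WT was -0.61 over the 9 genes and -0.02 over all genes.

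The log2 ratio of TNF-Tg over WT in LMC-type stroma was -0.88 [-1.03 to -0.74] for *Fbln5*, -0.75 [-0.83 to -0.68] for *Fbln2* and -0.74 [-0.77 to -0.70] for *Fbn1*. It was -0.66 [-0.81 to -0.52] for *Eln*, -0.61 [-0.76 to -0.46] for *Ltbp4*, -0.58 [-0.73 to -0.42] for *Fbln1* and -0.50 [-0.54 to -0.47] for *Mfap5*. *Efemp1* stood close to its WT level, at -0.17 [-0.22 to -0.13], while *Emilin1* was higher at 0.53 [0.31 to 0.75]. *Mfap4*, under 10 CPM in both libraries, had 86 UMIs in WT and 2 in TNF-Tg, a log2 ratio of -3.64 [-6.71 to -1.74]. The summed level of the 10 LMC-type gate markers was also lower in TNF-Tg, at 5769 CPM against 8071 CPM in WT, and that of the 6 stromal markers was 26130.2 against 35390.2 CPM. Their part in these ratios was not tested.

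In VSMC-type stroma, 3 of the 10 genes were at least 2-fold lower in TNF-Tg and none was 2-fold higher, where 9.51% of 7898 genes were 2-fold lower and 3.33% were 2-fold higher. *Ltbp4* stood at 270.1 CPM against 743 CPM, a log2 ratio of -1.46 [-1.55 to -1.37]. *Fbln5* stood at 38.1 against 106 CPM, a log2 ratio of -1.47 [-1.72 to -1.24]. *Mfap4* had 14 UMIs in TNF-Tg and 198 in WT, a log2 ratio of -3.58 [-4.47 to -2.80]. It reached 10 CPM in WT and not in TNF-Tg, so its place among the 3 rests on the library in which it was high. *Fbln1* lay just inside the 2-fold limit, at -0.99 [-1.08 to -0.89], and *Fbln2* was at -0.66 [-0.75 to -0.57]. The 6 stromal markers were also lower in these cells of TNF-Tg, at 28328.3 against 45891.2 CPM in WT, as were the 10 LMC-type markers at 562 against 1011 CPM, while the 10 VSMC-type markers stood at 5958 against 6224 CPM. Their part in the ratios was not tested.

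The genes that led in LMC-type stroma had ratios near 1 in VSMC-type stroma. Log2 ratios of TNF-Tg over WT were -0.08 [-0.18 to 0.01] for *Fbn1*, -0.12 [-0.20 to -0.03] for *Mfap5* and -0.04 [-0.15 to 0.08] for *Efemp1*. They were -0.27 [-0.44 to -0.11] for *Eln* and 0.20 [-0.07 to 0.47] for *Emilin1*. In all, 9 of the 10 genes were lower, against 59.5% of all genes, and the median log2 ratio was -0.47 for the 10 genes and -0.17 for all genes. TMM scaling, which centres the bulk of genes, raised every log2 ratio in VSMC-type stroma by 0.17, and *Fbn1*, *Mfap5* and *Efemp1* then stood at 0.09, 0.05 and 0.13, which left 6 of 10 genes lower. The share of all genes lower by any size under that scaling was not computed, so the 6 are no result about these genes as a set. Under that scaling, 51.2% of the genes at least 2-fold apart were lower in TNF-Tg, against 74.1% without it. Over all 10 alternatives in the processing, log2 ratios in VSMC-type stroma ran from -0.29 to 0.09 for *Fbn1* and from -0.32 to 0.05 for *Mfap5*. For *Efemp1* they ran from -0.16 to 0.13. Whether ratios differed between the stromal types was not tested, as each type has 1 library per condition. The study lists *Fbn1* among genes lowered in TNF-Tg LMCs and not in VSMCs. It used the same libraries, so the pattern of *Fbn1* here is not independent of it.

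**Figure D3:**
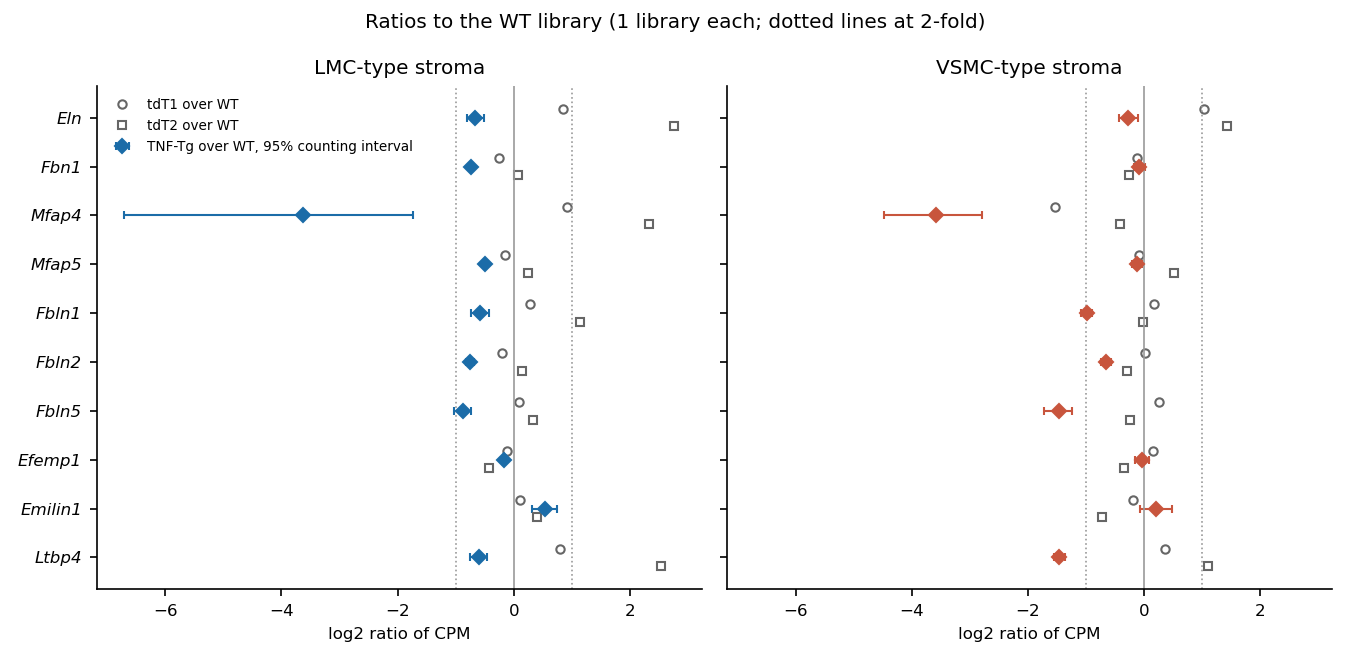
Log2 ratio of CPM over the WT library in LMC-type (left) and VSMC-type (right) stroma: filled diamonds give TNF-Tg with 95% counting intervals, open circles tdT1 and open squares tdT2, and dotted lines mark 2-fold. *Fbln5* and *Ltbp4* lie past the 2-fold line in VSMC-type stroma of TNF-Tg, and the tdT symbols for *Eln* and *Ltbp4* lie on the other side of 0.

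Levels in TNF-Tg were next set against the range of the 3 libraries without the transgene, which differ among themselves in sort, sex and sequencer. In LMC-type stroma, TNF-Tg was below all 3 for 8 of the 10 genes, whereas 30.6% of 8692 genes with at least 10 CPM in any library were below. *Mfap4*, among the 8, reached 10 CPM only in tdT2, at 17.8 CPM from 9 UMIs. *Emilin1* was above the range, as were 27.3% of all genes, and *Efemp1* was within it. In VSMC-type stroma, 7 of the 10 genes were below the range (42.4% of 8993 genes), *Emilin1* was above it (23.4% of genes), and *Fbn1* and *Efemp1* were within it. WT was itself the lowest other library for *Eln*, *Mfap4*, *Fbln1*, *Fbln5* and *Ltbp4* in LMC-type stroma. The same held for *Eln* and *Ltbp4* in VSMC-type stroma. For these, the place below the range repeats the ratio of TNF-Tg over WT. The gap differed by gene. *Ltbp4* in VSMC-type stroma lay 1.46 log2 units under the lowest other library, and *Fbln5* lay 1.23 under it. *Mfap5* in the same cells lay 0.03 log2 units under the lowest other library.

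**Figure D4:**
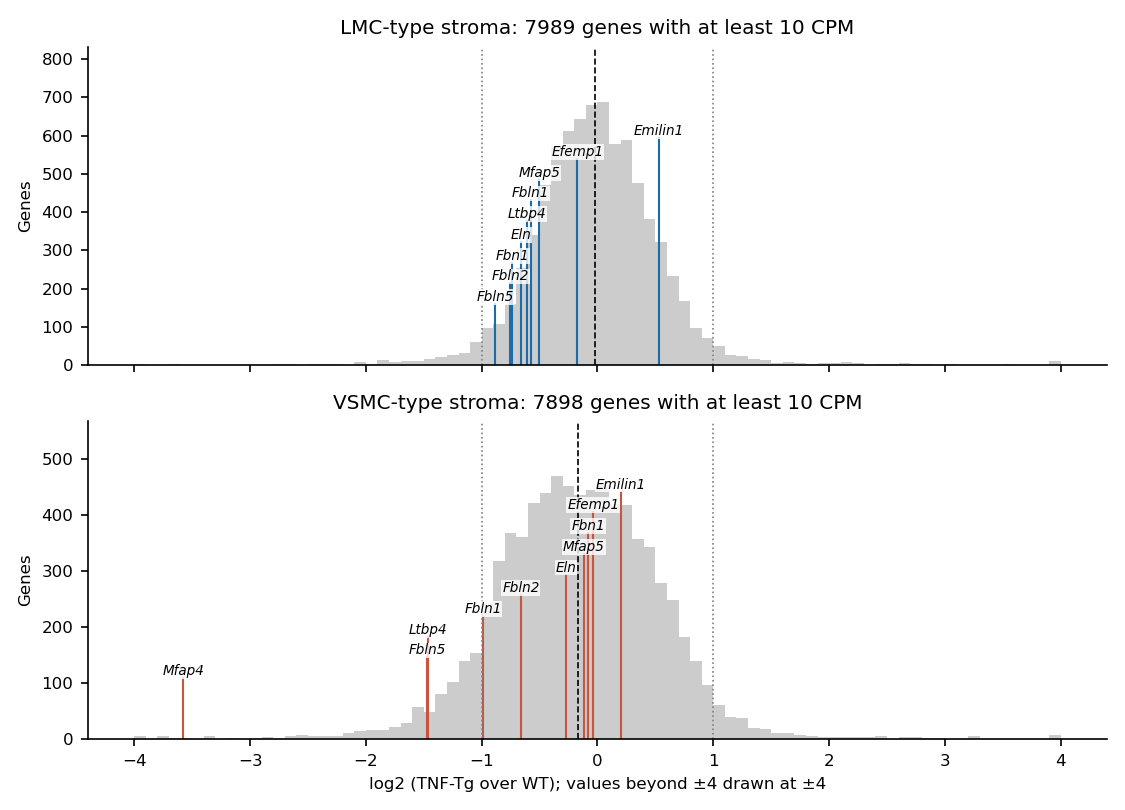
Distribution of the log2 ratio of TNF-Tg over WT over all genes with at least 10 CPM in either library (grey bars, number of genes), with the ratio of each elastic fibre gene as a labelled line. The dashed line is the median over all genes, -0.02 in LMC-type and -0.17 in VSMC-type stroma, and dotted lines mark 2-fold.

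The share of cells with at least 1 UMI was compared after each cell had been thinned to 3000 UMIs, which left out 24 LMC-type cells of WT and 5 of TNF-Tg, and 89 VSMC-type cells of WT and 58 of TNF-Tg. Brackets give exact Clopper-Pearson 95% intervals over the cells of 1 library, which cover counting error and not the spread between mice or libraries. *Ltbp4* was found in 77.0% [73.0 to 80.6] of VSMC-type cells in WT and in 45.6% [40.7 to 50.6] in TNF-Tg, from 90.4% and 77.4% before thinning. *Fbln1* was found in 65.8% [61.4 to 70.1] of the VSMC-type cells of WT and in 44.9% [40.03 to 49.8] of those of TNF-Tg, from 81.9% and 71.7% before thinning. For *Fbln5* in VSMC-type cells, the shares were 19.96% [16.5 to 23.8] in WT and 9.71% [7.03 to 13.0] in TNF-Tg, from 46.4% and 26.0%. For *Fbn1* in VSMC-type cells, the shares were 56.6% [52.05 to 61.04] in WT and 46.4% [41.5 to 51.3] in TNF-Tg, from 74.4% and 67.9%. The share was lower in the TNF-Tg library for each of these genes, with no test between conditions.

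In LMC-type cells, *Fbn1* was found in 93.6% [92.2 to 94.8] in WT and 83.4% [79.9 to 86.6] in TNF-Tg, from 98.98% and 97.1% before thinning. *Fbln2* was found in 66.3% [63.8 to 68.8] and 46.0% [41.6 to 50.4] of these cells, from 93.1% and 80.1%. *Efemp1*, at 89.6% [87.9 to 91.1] and 88.4% [85.2 to 91.02], had nearly the same share in both, from 97.4% and 98.2% before thinning. *Eln* stood at 21.1% [19.0 to 23.2] of the LMC-type cells in WT and 16.4% [13.3 to 19.9] in TNF-Tg, from 52.4% and 43.4%. It was found in 70.0% [57.9 to 80.4] of the 70 cells that remained in tdT2, from 73.0%. *Emilin1* was found in 5.82% [4.67 to 7.15] of these cells in WT and in 10.1% [7.58 to 13.0] in TNF-Tg, from 30.1% and 32.6%, so that TNF-Tg had the higher share. Leukocytes of WT, which are not known as a source of these fibres, had thinned shares of 3.82% for *Emilin1* and 0.15% to 1.19% for 8 others. After thinning, 0 of 2617 leukocytes held a UMI of *Mfap4*, which allows a share of cells with a UMI of up to 0.115% (3 cells) at that depth, and 0.108% of leukocytes held one before thinning. The median depth before thinning was 16148.5 UMIs in LMC-type cells, 10418 in VSMC-type cells and 12115.5 in leukocytes of WT. The median LMC-type cell of WT and of TNF-Tg held UMIs of 4 of the 10 genes at 3000 UMIs, and the median VSMC-type cell held 4 in WT and 3 in TNF-Tg.

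**Figure D5:**
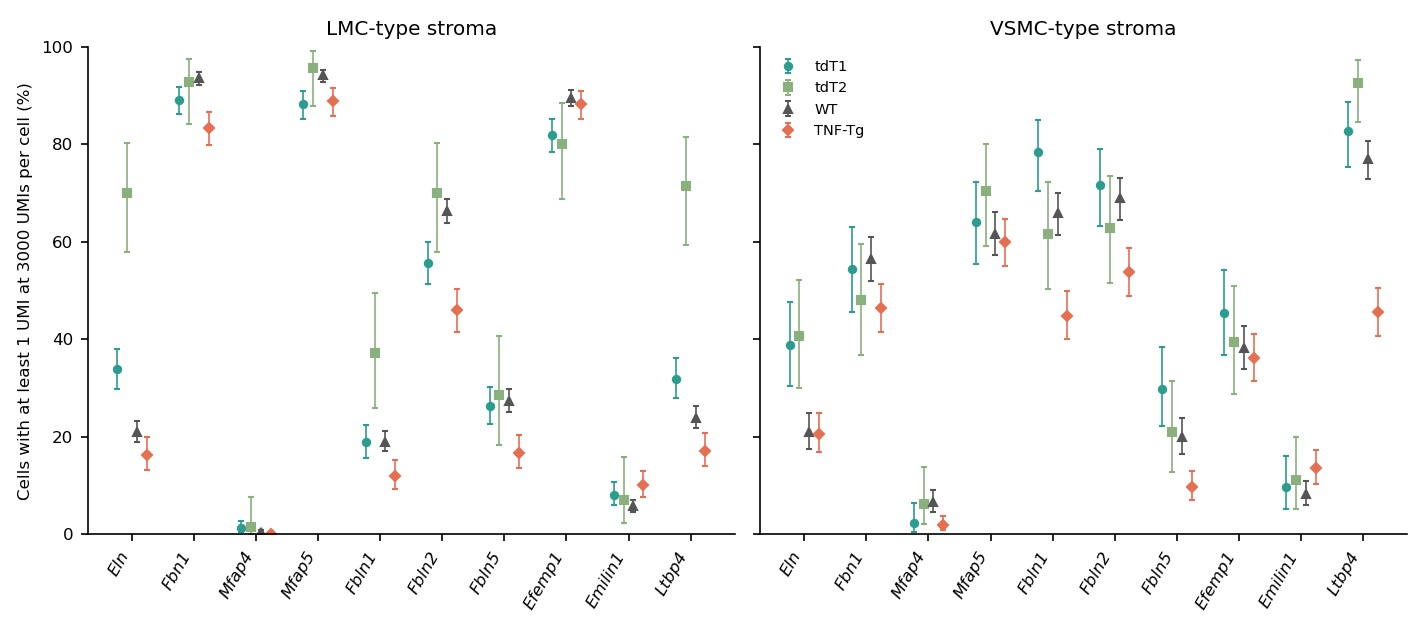
Share of LMC-type (left) and VSMC-type (right) cells with at least 1 UMI of each gene in each library (%), with each cell thinned to 3000 UMIs and exact 95% intervals. The TNF-Tg share of *Ltbp4* in VSMC-type cells, 45.6%, lies under the other libraries, and the tdT2 shares of *Eln* and *Ltbp4* in LMC-type cells lie above them.

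Stromal cells with a score between the limits, 111 of tdT1, 47 of tdT2, 165 of WT and 119 of TNF-Tg, gave another set of profiles. *Fbn1* stood at 645, 968, 785 and 724 CPM in these cells of tdT1, tdT2, WT and TNF-Tg, between the levels of the 2 types in each library. *Ltbp4* stood at 632, 964, 346 and 145 CPM, also between the types in each library. Not all genes lay between the types. *Fbln2* stood at 796, 653, 554 and 385 CPM, above both types in each library. *Eln* was above both types in tdT2, at 814 CPM, and in TNF-Tg. *Mfap4* was above both types in tdT1, at 20.8 CPM, and in tdT2, at 80.3 CPM. *Fbln1* was at 109 CPM in TNF-Tg against 261 CPM in WT, a log2 ratio of -1.26 [-1.50 to -1.01], and *Fbln5* was at -1.10 [-1.47 to -0.74]. *Eln* was higher in TNF-Tg than in WT in these cells, at 126 against 106 CPM, with an interval that reached 0 (log2 ratio 0.26 [-0.02 to 0.53]). *Mfap4* had 44 UMIs in WT and 2 in TNF-Tg.

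Across the 12 profiles of LMC-type, VSMC-type and undetermined stroma in 4 libraries, Pearson's r of log2(CPM + 1) ran from -0.87 between *Efemp1* and *Fbln1* to 0.94 between *Ltbp4* and *Fbln1*. It was 0.90 between *Fbn1* and *Mfap5*. Genes that did not pass the test between types also had high r with genes that did, at 0.80 for *Fbln2* with *Mfap4*, 0.71 for *Eln* with *Mfap4* and 0.70 for *Eln* with *Ltbp4*. These are descriptions, since the profiles come from 4 libraries with their own depth and preparation. The genes most like *Fbn1* among 9866 were *Prss23* (r = 0.98), *Rorb* (r = 0.96) and *Ppp2r2b* (r = 0.96). Those most like *Eln* were *Kdr* (r = 0.96), *Elk3* (r = 0.94) and *Spon2* (r = 0.94). *Kdr* had no more than 39 UMIs in any profile, so its likeness to *Eln* rests on few molecules. *Rorb* had 0 UMIs and *Ppp2r2b* 1 UMI in their lowest profiles, so their likeness to *Fbn1* rests in part on values near the floor.

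Beyond the 10 genes, 50 genes of cross-linking, of other fibre components, of elastin breakdown and of its receptors were listed, and 38 of them passed the filter of the test between types. Of these, 11 were higher in LMC-type stroma (6.32% of all genes tested), 5 were higher in VSMC-type stroma (7.18% of all genes tested) and 22 did not pass. *Loxl1*, a lysyl oxidase that cross-links elastin, was at 509 to 633 CPM in LMC-type and 111 to 161 CPM in VSMC-type stroma, with no overlap (log2 ratio 1.95 ± 0.15, SE, 4 libraries; edgeR, adjusted p = 5.9e-07). *Fn1*, the fibronectin gene, and *Vcan*, whose proteoglycan versican binds fibrillin, were also higher in LMC-type stroma, at log2 ratios of 1.99 ± 0.21 and 1.69 ± 0.21 (SE, 4 libraries). *Fbln7*, another fibulin gene, was higher in VSMC-type stroma, at 4.96 to 20.1 CPM, against at most 0.23 CPM in the LMC-type stroma of tdT1 and WT and no UMI in that of tdT2 and TNF-Tg. *Timp1*, an inhibitor of matrix metalloproteinases, was higher in VSMC-type stroma at a log2 ratio of -2.49 ± 0.28 (SE, 4 libraries), with levels that overlapped across libraries. *Prtn3*, which encodes the neutrophil protease proteinase 3, was higher there at 2.05 to 14.6 CPM, from at most 32 UMIs in any sum.

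Between TNF-Tg and WT, 36 of the 50 genes reached 10 CPM in LMC-type stroma, of which 4 were at least 2-fold lower in TNF-Tg and 1 was at least 2-fold higher (2.95% and 2.65% of all genes). In VSMC-type stroma, 34 reached it, with 7 at least 2-fold lower and 1 at least 2-fold higher (9.51% and 3.33% of all genes). *Timp1* was the gene that was higher in both, at 333 against 20.6 CPM in LMC-type stroma (log2 ratio 4.02 [3.88 to 4.16]) and at 906 against 210.2 CPM in VSMC-type stroma (log2 ratio 2.11 [2.02 to 2.20]). The tdT libraries had at most 60.1 CPM of *Timp1* in either type. *Lox*, the first-described lysyl oxidase, was at 55.2 against 170 CPM in LMC-type and 47.4 against 193 CPM in VSMC-type stroma. Its log2 ratios were -1.62 [-1.77 to -1.47] and -2.02 [-2.23 to -1.82], but tdT2 was lower still, at 13.9 and 43.7 CPM. *Fn1* was 2-fold lower in both types, with log2 ratios of -1.03 in LMC-type and -1.34 in VSMC-type stroma, and in the latter tdT2 was lower still at 852 CPM against 936 CPM.

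*Hmcn1*, which encodes the fibulin-related protein hemicentin-1, had 412 UMIs in WT and 13 in TNF-Tg LMC-type cells, a log2 ratio of -3.20 [-4.12 to -2.41]. *Ctss*, the gene of the elastin-degrading protease cathepsin S and known from macrophages, was at 14.7 CPM in the LMC-type cells of WT and at 3.02 CPM in those of TNF-Tg, and tdT1 had 3.02 CPM and tdT2 1.98 CPM (1 UMI), so that TNF-Tg lay within the range of the other libraries. Leukocyte markers moved with it, at 64.4 CPM for WT against 33.7 CPM for TNF-Tg, and their part was not tested. In LMC-type stroma, *Hmcn1* and *Ctss* reached 10 CPM in WT and not in TNF-Tg. These genes thus entered the comparison through the library in which they were high. In VSMC-type stroma, log2 ratios were -1.49 [-2.01 to -1.002] for the integrin gene *Itgb3*, -1.38 [-1.51 to -1.24] for the membrane protease gene *Mmp14*, and -1.19 [-1.23 to -1.16] for the metalloproteinase inhibitor gene *Timp2*. TNF-Tg lay below the other 3 libraries for these 3 genes.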

How the data were processed

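Single-cell RNA was captured with 10x 3′ chemistry from 4 libraries, each of 3 pooled mice. The deposited values are UMI counts for each gene in each cell. The authors obtained them from Cell Ranger (3.1.0 for tdT1 and 6.0.1 for the other libraries, per the file headers) as filtered matrices, with mm10 named in the submitters' processing notes. They were not normalized, and the annotation is not given in the sources used here. Libraries held 454 to 5488 cells and 2357031 to 68773605 UMIs. No cells were removed for quality, and doublets predicted by Scrublet (scanpy 1.11.5) were kept. In tdT1, 516 of 1504 cells had over 10% mitochondrial UMIs. The counts were 1 of 454 in tdT2, 252 of 5488 in WT and 65 of 3391 in TNF-Tg.

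The members, gene lists and tests were chosen with earlier results of these data known. UMIs were summed per library and gated type. Each LMC-type or VSMC-type marker was log-normalized per 10000 UMIs and scaled to its 99th percentile, the score was the difference of the means, and its limit was 0.1. An endothelial gate was added after the data had been seen. Types were compared with edgeR 4.0.16 (TMM, filterByExpr, library as a block, Benjamini-Hochberg adjustment over 10995 genes, threshold 0.01) in R 4.3.3, with DESeq2 1.42.0 as an alternative. With this block, p-values measure how evenly the ratio of the types repeated over 4 pooled libraries that differ in mice, sort and sequencer. On simulated data with 10802 genes, edgeR recovered 5, 49, 50 and 50 of 50 genes changed by 0.5, 1, 2 and 4 on the log2 scale, with 4 false calls. The changed genes had a mean of at least 10 CPM, and counts were drawn from the dispersions that edgeR fitted. Recovery of lower genes, or of data that depart from this model, was therefore not tried. TNF-Tg and WT were compared by ratios of CPM without a test. Counting intervals are at 95%, and UMIs of 1 library are not independent mice. Depths differ, so a level in tdT2 carries a floor of 5.95 CPM (3 UMIs) in LMC-type cells. Scripts ran in Python 3.11.15 (pandas 2.3.3, scipy 1.17.1, numpy 2.4.6).

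The 10 members were all described. Of the 50 listed pathway genes, at most 6 per comparison with the largest absolute log2 ratio were named among those past the threshold and with at least 10 CPM, and 3 genes most like *Eln* and *Fbn1*. Gene positions came from GENCODE for GRCm38 and upstream sequences from RefSeq.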

Additional observations from a re-analysis of the deposited data

Results flagged for a closer look

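Endothelial-gated cells take no part in the comparisons of stromal types. Only tdT1 held more than 6 of them, with 32 cells and 442198 UMIs. There, 7 of the 10 genes had a counting interval above that of leukocytes of the same library. The share of all genes that did so was not computed, so the count is no result about these genes as a set. *Ltbp4* was at 1101 CPM [1006 to 1204], against 3.98 CPM in leukocytes, and *Eln* was at 387 CPM [331 to 449], against 1.33 CPM. *Fbln2* stood at 172 CPM, *Fbn1* at 147 CPM, *Emilin1* at 72.4 CPM, *Fbln5* at 67.8 CPM and *Efemp1* at 54.3 CPM. *Mfap5* was at 24.9 CPM, with an interval that overlapped that of leukocytes, *Fbln1* had 1 UMI and *Mfap4* none. The endothelial gate set no limit on stromal markers. In these cells of tdT1, the stromal markers summed to 590 CPM, against 203 CPM in leukocytes and 38140.6 CPM in VSMC-type stroma. The 10 VSMC-type markers summed to 5735 CPM, against 5633 CPM in VSMC-type stroma, though 4 of them had no UMI. Their part in the levels was not tested. The values come from 1 library without a replicate, and no test was made.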

How the results depend on the processing

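*Fbn1*, *Mfap5*, *Efemp1* and *Fbln1* kept their call and direction between the types under all 15 alternatives, *Ltbp4* under 14 and *Mfap4* under 13, and *Eln*, *Fbln2* and *Fbln5* passed under none. Over all genes, 1484 calls became 2235 without the expression filter and 322 without the library block, and leaving out 1 library gave between 789 and 1613. The lowest count was without WT. DESeq2 called 1374 genes and RLE normalization 1491, and each called 6 of the members. Genes at least 2-fold apart between TNF-Tg and WT numbered 182 in LMC-type and 396 in VSMC-type stroma with at least 50 CPM, where fewer genes were compared, and 2310 and 2653 with at least 1 UMI, against 448 and 1014. With at least 1 UMI, 1 member (*Mfap4*) was past 2-fold in LMC-type stroma. The shares of all genes called or 2-fold apart under these alternatives are not given here. The member counts are therefore not read against them. *Ltbp4*, *Fbln5* and *Mfap4* stayed past 2-fold in VSMC-type stroma under all 10 alternatives that gave a ratio, and *Fbln1* passed it under 2. *Efemp1* in VSMC-type stroma, at -0.04, turned to 0.0012 with means over cells. Alternatives for the range of the other libraries were chosen after seeing the data. Members above the range in VSMC-type stroma numbered 1 to 2 and members below it 7 to 8 when tdT1, tdT2 or WT was left out, and 6 were below it at a score limit of 0.05. The shares of all genes outside the range under these settings are not given here, so no stability of the members is read from these counts. Between types, the library block paired the 2 sums of each library. No pairing was possible between TNF-Tg and WT, which came from separate mice. With 1 library for each of WT and TNF-Tg, depth limits only the low genes, and differences between mice cannot be judged.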
